A study of Mus musculus with 3 samples.

Results

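The genes described here are 10 members of the amino acid response that the transcription factor ATF4 directs: *Atf4*, *Asns*, *Ddit3*, *Ddit4*, *Sesn2*, *Trib3*, *Chac1*, *Psat1*, *Phgdh* and *Atf5*. Every probe set (the group of short probes that reads 1 transcript) whose annotation gave exactly 1 gene symbol from this list was taken, which gave 20 of the 45101 probe sets on the array and at least 1 for each of the 10 genes. A further 2 probe sets that name *Phgdh* together with another gene were left out. The genes were proposed with the differences between these arrays in view, so those differences are given as a description and carry no test.

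Kidney RNA was measured in 2 samples of a cardio-renal syndrome model and in 1 sample from mice with uninephrectomy alone, with 1 single-colour Affymetrix array for each. All were male C57BL/6J mice, 16 weeks old, that had lost 1 kidney. In the model the abdominal aorta had also been constricted, per the labels where the renal arteries diverge, 2 weeks before the nephrectomy. The remaining kidney was homogenised whole 6 weeks after the nephrectomy, and neither the number of mice behind each array nor whether the uninephrectomy mice had a sham banding is stated. The values are MAS5 signals, a linear brightness that was already scaled to the same trimmed mean on each array.

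When amino acids run short or unfolded protein builds up, kinases such as GCN2 and PERK phosphorylate the initiation factor eIF2alpha, general translation slows, and the *Atf4* transcript is translated more. ATF4 then pairs with C/EBP proteins on a composite promoter element and switches on genes for amino acid synthesis and uptake, tRNA charging, restraint of the growth kinase mTORC1 and, if stress persists, cell death. Kidney tubules take back filtered amino acids and make serine, and in them, as elsewhere, the activity of ATF4 is set largely by its translation, which an array of transcripts does not read.

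The promoters are shown because the ATF4 element lies in some of them. RefSeq's table for GRCm38.p6 held a promoter window for all 10 genes, 12 windows in all, each reaching from 250 bases before the start of the gene to 50 after it. Both strands were searched for TGATGNAA, the core of the composite C/EBP-ATF element, whose reverse is TTNCATCA. No other motif was searched, so overlap with one was not examined. It was present in 3 of the 12 windows, those of *Asns*, *Chac1* and *Trib3*, and in 3.97% of all 32851 windows in the table. The windows below are written 5′ to 3′ on the strand of the gene and end 30 bases after its start, with the match in capitals. The match lies at bases 228 to 235 of the *Asns* window (chr6:7693180-7693459, minus strand), at bases 58 to 65 of the *Chac1* window (chr2:119350992-119351271, plus strand) and at bases 265 to 272 of the *Trib3* window (chr2:152344031-152344310, minus strand), counted from 1 at the 5′ end. In *Chac1* and *Trib3* the match is on the opposite strand. The windows of *Ddit3* (chr10:127290543-127290822, plus strand) and *Sesn2* (chr4:132510427-132510706, minus strand) are shown for contrast, since their signals lay on opposite sides of the uninephrectomy array; neither holds these letters, which says nothing about whether ATF4 binds there or elsewhere.
Asns: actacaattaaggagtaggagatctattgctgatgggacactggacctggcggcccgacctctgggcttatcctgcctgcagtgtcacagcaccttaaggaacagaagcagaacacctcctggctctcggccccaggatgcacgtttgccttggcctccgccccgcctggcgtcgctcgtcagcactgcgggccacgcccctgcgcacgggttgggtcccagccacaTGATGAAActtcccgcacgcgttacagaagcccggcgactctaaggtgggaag
Chac1: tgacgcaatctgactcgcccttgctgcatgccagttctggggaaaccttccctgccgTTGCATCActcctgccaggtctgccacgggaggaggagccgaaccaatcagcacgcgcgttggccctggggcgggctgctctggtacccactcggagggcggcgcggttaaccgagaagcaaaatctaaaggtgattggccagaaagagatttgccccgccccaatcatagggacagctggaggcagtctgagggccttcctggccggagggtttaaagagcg
Trib3: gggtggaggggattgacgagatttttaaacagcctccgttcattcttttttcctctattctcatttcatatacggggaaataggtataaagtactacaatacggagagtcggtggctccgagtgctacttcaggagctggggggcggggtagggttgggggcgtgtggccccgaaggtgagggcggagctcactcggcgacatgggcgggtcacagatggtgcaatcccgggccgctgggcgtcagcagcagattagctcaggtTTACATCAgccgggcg
Ddit3: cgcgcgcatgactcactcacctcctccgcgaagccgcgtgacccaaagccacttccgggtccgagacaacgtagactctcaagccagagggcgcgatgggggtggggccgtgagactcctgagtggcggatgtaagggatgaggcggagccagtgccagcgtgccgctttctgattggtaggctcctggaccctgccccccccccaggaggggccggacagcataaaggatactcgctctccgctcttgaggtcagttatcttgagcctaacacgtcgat
Sesn2: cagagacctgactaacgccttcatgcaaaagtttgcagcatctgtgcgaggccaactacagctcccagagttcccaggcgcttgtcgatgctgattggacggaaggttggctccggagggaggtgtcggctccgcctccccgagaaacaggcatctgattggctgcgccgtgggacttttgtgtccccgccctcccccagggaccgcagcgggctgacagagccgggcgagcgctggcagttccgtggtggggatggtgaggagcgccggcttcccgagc

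Some facts of the arrays bear on every result. The median signal was 105.9 and 102.0 on cardio-renal arrays 1 and 2 and 100.1 on the uninephrectomy array, and the actin 3′/5′ signal ratio, a measure of RNA integrity, was 1.72 and 1.73 in the cardio-renal samples and 1.72 in the uninephrectomy sample. All 10 kidney marker genes with a named probe set were kept, with summed signals of 134963 and 156978 in the cardio-renal arrays and 151945 in the uninephrectomy array. Heart muscle markers were higher in both cardio-renal arrays for 14 of 15 genes, and 5 of the 15 were bright enough to be kept. Over all 18193 named genes, dim ones included, 6116 were higher in both and 5276 lower. The summed signals of the heart muscle markers were 2760 and 2192 in the cardio-renal arrays and 707.3 in the uninephrectomy array, and none was at 0. Cardio-renal array 1 stood apart in male-biased kidney genes, whose summed signal over 10 genes was 91885 there, 159876 on cardio-renal array 2 and 153504 on the uninephrectomy array, and none was at 0. Female-biased kidney genes, 5 in all with none at 0, summed to 18309 and 9811 in the cardio-renal arrays and 9971 in the uninephrectomy array, but they split, with 3 higher and 2 lower in both cardio-renal arrays. *Slc7a12* had 6011 and 695.2 in the cardio-renal kidneys and 213.4 in the uninephrectomy kidney, while *Akr1c18* had 20.8 and 491.9 in the cardio-renal kidneys and 1246 in the uninephrectomy kidney. The part of the heart and sex-biased transcripts in the results below was not tested, and values are given for each cardio-renal array so that either can be set aside. The samples are whole kidney, so fewer cells of a type and less RNA per cell cannot be told apart.

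*Atf4* and its target factor *Ddit3* were dimmer in the cardio-renal kidneys. The main *Atf4* probe set had signals of 2943 and 3271 in the cardio-renal kidneys and 4530 in the uninephrectomy kidney. Both cardio-renal values lay below the single uninephrectomy value, at 65.0% and 72.2% of it. On the scale used for all differences here, log2 of the signal plus 28.8, this is a mean difference of -0.54 ± 0.11 (SD, n = 2 cardio-renal arrays). The other probe sets did not all follow. One whose _x_at name marks probes shared with other transcripts had signals of 1747 and 1173 in the cardio-renal kidneys and 1619 in the uninephrectomy kidney, so the uninephrectomy value lay between the cardio-renal ones. The third was near background, with signals of 3.81 and 4.27 in the cardio-renal kidneys and 5.76 in the uninephrectomy kidney, all below the lower quartile of their array. A lower *Atf4* signal in both cardio-renal arrays therefore rests on 1 bright probe set, and the mean over all 3 gave a difference of -0.26.

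*Ddit3* encodes CHOP, a bZIP factor that ATF4 induces and that promotes apoptosis under lasting stress. Its brighter probe set had signals of 713.0 and 629.6 in the cardio-renal kidneys and 1045 in the uninephrectomy kidney. The dimmer one had 140.2 and 127.2 in the cardio-renal kidneys and 215.6 in the uninephrectomy kidney. Both probe sets placed both cardio-renal samples below the uninephrectomy sample and by nearly the same amount, with mean log2 differences of -0.62 ± 0.12 and -0.59 ± 0.08 (SD, n = 2). *Atf5* encodes a bZIP factor related to ATF4 whose translation is likewise controlled by upstream reading frames. It had signals of 290.4 and 233.9 in the cardio-renal kidneys and 264.0 in the uninephrectomy kidney, so the groups overlapped, with a mean difference of -0.02 ± 0.20 (SD, n = 2).

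**Figure D1:**
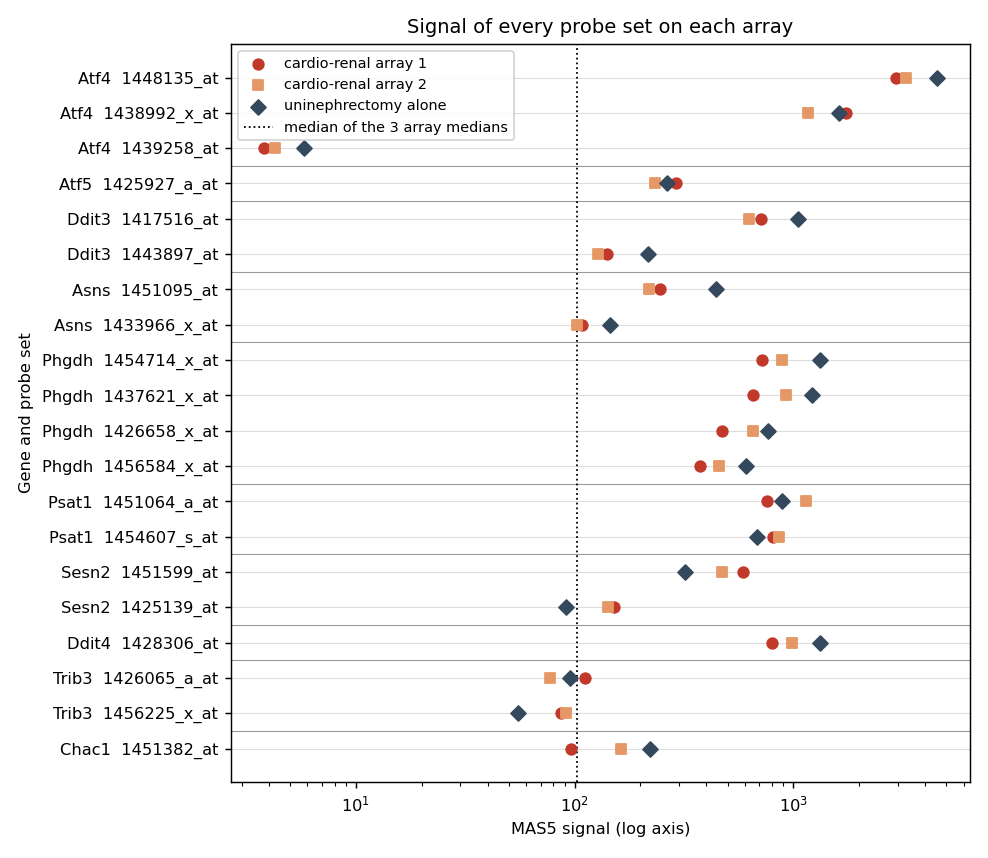
MAS5 signal (log axis) of each of the 20 probe sets on each of the 3 arrays, grouped by gene; circles and squares are the cardio-renal arrays, diamonds the uninephrectomy array, and the dotted line the median array median of 102.0. The diamond lies right of both other points for every probe set of *Asns*, *Ddit3*, *Phgdh*, *Ddit4* and *Chac1*, and left of both for *Sesn2*.

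Of the biosynthetic enzymes, those for asparagine and for the entry into serine synthesis had lower signals in both cardio-renal kidneys, and the next serine enzyme did not. *Asns*, asparagine synthetase, is a classical ATF4 target, and in the human gene the element shown above for the mouse promoter is known as a nutrient-sensing site. Its main probe set had signals of 246.7 and 217.7 in the cardio-renal kidneys and 441.3 in the uninephrectomy kidney. The cardio-renal signals were 55.9% and 49.3% of the uninephrectomy signal, and the mean log2 difference of -0.85 ± 0.11 (SD, n = 2) was the lowest among the 10 genes. Among all 11144 genes kept after leaving out dim ones, 43 had a mean difference as low as this or lower, *Asns* included. The second *Asns* probe set, an _x_at one, had 107.6 and 102.0 in the cardio-renal kidneys and 144.6 in the uninephrectomy kidney, again lower in both, with a mean log2 difference of -0.38 ± 0.04 (SD, n = 2).

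*Phgdh*, phosphoglycerate dehydrogenase, diverts a glycolytic intermediate into serine synthesis, and all 4 of its probe sets carry the _x_at suffix. The brightest had signals of 715.6 and 885.3 in the cardio-renal kidneys and 1326 in the uninephrectomy kidney, a mean log2 difference of -0.72 ± 0.21 (SD, n = 2). Each of the 4 probe sets was lower in both cardio-renal arrays, and in each the difference was greater in array 1. Their cardio-renal signals ranged from 53.7% to 61.3% of the uninephrectomy signal in array 1 and from 66.8% to 85.2% in array 2. *Psat1*, the aminotransferase of the next step, gave no shared direction: its first probe set had 754.5 and 1143 in the cardio-renal kidneys and 884.8 in the uninephrectomy kidney, and the groups overlapped. Its second probe set had 807.1 and 858.0 in the cardio-renal kidneys and 678.5 in the uninephrectomy kidney, with both cardio-renal values higher. *Psph*, the phosphatase that completes the pathway, had 930.9 and 900.7 in the cardio-renal kidneys and 1011 in the uninephrectomy kidney, a mean log2 difference of -0.14 ± 0.03 (SD, n = 2). The serine enzymes thus had unequal differences at the transcript level, largest at the first step.

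The pair of genes that restrain mTORC1 lay on opposite sides of the uninephrectomy array. *Sesn2* encodes sestrin 2, a leucine sensor that holds mTORC1 back through the GATOR complexes. Its main probe set had signals of 588.5 and 472.8 in the cardio-renal kidneys and 318.6 in the uninephrectomy kidney. Both cardio-renal samples were above the uninephrectomy sample, at 1.85 and 1.48 times its signal, with a mean log2 difference of 0.68 ± 0.21 (SD, n = 2). The dimmer probe set had 152.0 and 141.5 in the cardio-renal kidneys and 91.5 in the uninephrectomy kidney, higher in both by 0.54 ± 0.06 (SD, n = 2) on the log2 scale. Of the 11144 kept genes, 83 had a mean difference as high as that of *Sesn2* or higher, *Sesn2* included.

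*Ddit4* encodes REDD1, which restrains mTORC1 through the TSC complex and also responds to hypoxia and glucocorticoids. Its single probe set had signals of 795.0 and 982.2 in the cardio-renal kidneys and 1324 in the uninephrectomy kidney. Both cardio-renal values were lower, and the mean log2 difference was -0.57 ± 0.21 (SD, n = 2). *Sesn2* and *Ddit4* therefore did not share a direction in either cardio-renal array.

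The last 2 genes act downstream of ATF4 and CHOP, and both had dim signals. *Chac1*, an enzyme that breaks down glutathione, had signals of 96.3 and 162.7 in the cardio-renal kidneys and 220.1 in the uninephrectomy kidney. Both cardio-renal values were lower, but they were far apart: the log2 difference was -0.99 in array 1 and -0.38 in array 2, and this gap of 0.61 between the cardio-renal arrays was the widest among the 9 kept genes. Across all kept genes the difference between the cardio-renal arrays had an SD of 0.32. *Trib3*, a pseudokinase that binds ATF4 and CHOP and damps the response, had 111.7 and 77.0 in the cardio-renal kidneys and 94.9 in the uninephrectomy kidney by its first probe set, so the groups overlapped. Its second, an _x_at one, had 86.4 and 91.2 in the cardio-renal kidneys and 55.3 in the uninephrectomy kidney, higher in both. *Trib3* was below the brightness limit of 7.02 on the log2 scale and is not among the kept genes.

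Of the 10 genes, 9 were kept, and 6 of these were lower in both cardio-renal arrays (*Atf4*, *Asns*, *Ddit3*, *Ddit4*, *Chac1* and *Phgdh*), against 29.7% of all 11144 kept genes. *Sesn2* alone was higher in both, where 30.7% of all kept genes were, and *Psat1* and *Atf5* had opposite signs. A log2 difference of at least 0.5 in both arrays was reached on the lower side by *Asns*, *Ddit3* and *Phgdh* (0.583% of kept genes) and on the higher side by *Sesn2* (0.87%). No member differed at least 2-fold on this scale in both arrays, where 0.0538% of kept genes were that much lower and 0.135% that much higher. The median difference over the 9 genes was -0.62 in array 1 and -0.42 in array 2, and over all kept genes it was 0.01 and -0.003. Since the genes were proposed from this same comparison, nothing follows from these counts about the list as such. The cardio-renal arrays are both compared with the same single uninephrectomy array, and its own spread is unknown. At the level of probe sets, 12 of the 20 were lower in both cardio-renal arrays, 4 were higher in both and 4 lay on either side. The 12 include the *Atf4* probe set near background and 4 of *Phgdh*, all _x_at ones, so they are not separate observations. The share over all probe sets was not counted, so nothing follows from these numbers either.

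**Figure D2:**
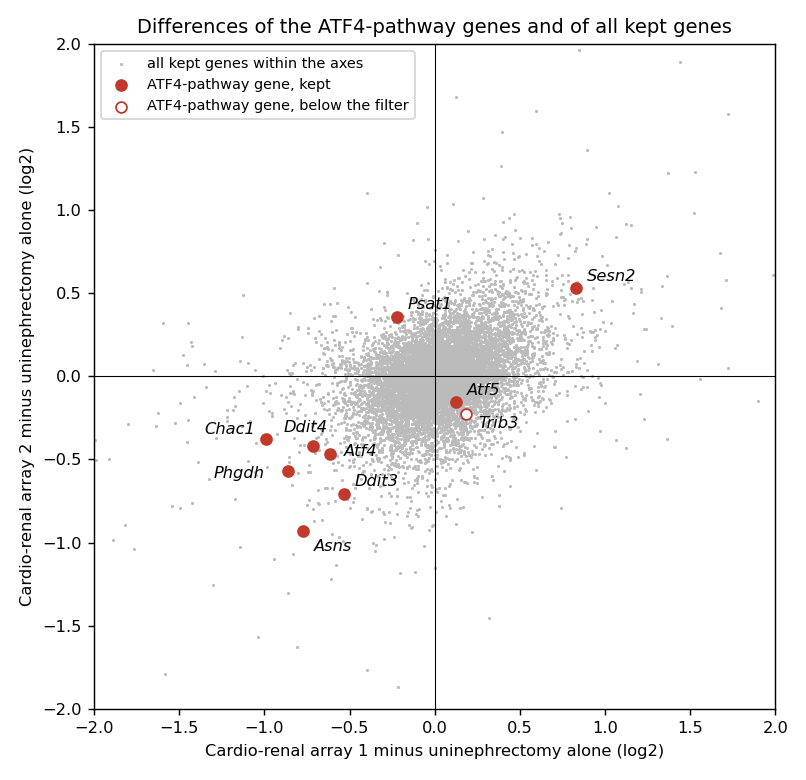
Log2 difference from the uninephrectomy array in cardio-renal array 1 (horizontal) and array 2 (vertical) for the kept genes within the axes (grey) and the 10 ATF4-pathway genes (red; the open circle is *Trib3*, below the brightness limit), 1 probe set a gene. The 6 genes at the lower left, from *Asns* to *Atf4*, are lower in both arrays, *Sesn2* at the upper right is higher in both, and *Psat1*, *Atf5* and *Trib3* lie near the centre with opposite signs.

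The rest of the pathway was read from 9 further lists that held 144 kept genes, each counted once. limma, fitted across all 11144 kept genes, called 0 of them in either direction after Benjamini-Hochberg adjustment (0% of all kept genes passed), with a lowest adjusted p of 0.9998 over the 144, and 5 had an unadjusted p below 0.05: *Bcl2l11*, *Cdkn1a*, *Jun*, *Pmaip1* and *Slc38a2*. Over all kept genes 280 had an unadjusted p below 0.05. Of the 144 genes, 43 lay below and 44 above the uninephrectomy signal in each cardio-renal array, or 29.9% and 30.6%, close to the shares of all kept genes, and their medians were -0.02 in array 1 and 0.03 in array 2.

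Upstream, the 16 kept genes for eIF2alpha kinases, phosphatase subunits and eIF2 factors had a median difference of -0.09 in array 1 and of -0.004 in array 2, and 7 were lower in both and 1 higher. Of all kept genes 29.7% were lower in both and 30.7% higher, and these shares belong beside each list count below. Among the 7, *Impact* and *Eif2s2* differed by only -0.005 and -0.003 in array 2. *Eif2ak3*, which encodes PERK, had signals of 1173 and 1307 in the cardio-renal kidneys and 1327 in the uninephrectomy kidney, close together in all 3. *Eif2ak4*, which encodes the amino acid sensor GCN2, had 272.8 and 201.4 in the cardio-renal kidneys and 204.2 in the uninephrectomy kidney, on either side, while its dimmer probe set was higher in both. *Ppp1r15a*, the GADD34 phosphatase subunit that reverses eIF2alpha phosphorylation and is itself an ATF4 target, had 349.8 and 359.2 in the cardio-renal kidneys and 392.8 in the uninephrectomy kidney. *Eif2b4*, with the largest difference of one sign in this list, had 942.9 and 899.0 in the cardio-renal kidneys and 1095 in the uninephrectomy kidney.

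The 12 kept bZIP partners had medians of 0.30 and -0.04, with 2 lower in both arrays and 4 higher. *Cebpb*, a C/EBP partner of ATF4, had signals of 1583 and 1927 in the cardio-renal kidneys and 1422 in the uninephrectomy kidney. *Atf3*, another factor of the response that ATF4 induces, had 227.9 and 178.9 in the cardio-renal kidneys and 169.2 in the uninephrectomy kidney. Both were thus higher in each cardio-renal array, *Atf3* by only 0.07 on the log2 scale in array 2. *Ddit3* was lower in both, as was *Atf4* by its main probe set but not by its bright _x_at one. *Jun*, an AP-1 subunit and immediate early gene, had 968.0 and 704.1 in the cardio-renal kidneys and 1258 in the uninephrectomy kidney, while *Junb* was higher in both arrays by 0.38 ± 0.07 (SD, n = 2) on the log2 scale.

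The transfer RNA synthetases, which ATF4 induces together with *Asns*, showed little difference. For the 12 kept genes of the ATF4-induced set the medians were 0.01 and 0.06, and their mean log2 differences ran from -0.20 for *Aars* to 0.25 for *Xpot*, the tRNA exporter, whose 4 probe sets disagreed in direction. For the 7 synthetases kept as the other set the medians were -0.02 and 0.01. None of these 19 genes reached a mean difference like that of *Asns*. Other enzymes of serine, glycine, one-carbon, proline and transsulfuration metabolism had medians of 0.004 and 0.02 over 18 genes, with 5 lower in both arrays and 6 higher. *Mthfd2*, the mitochondrial folate enzyme that ATF4 induces, had 206.9 and 161.3 in the cardio-renal kidneys and 132.5 in the uninephrectomy kidney by its brighter probe set. Its other probe set had 142.7 and 138.5 in the cardio-renal kidneys and 193.8 in the uninephrectomy kidney, so its direction is uncertain. *Mthfd1l*, of the same compartment, was lower in both, with a mean log2 difference of -0.42 ± 0.14 (SD, n = 2).

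Among 9 kept amino acid transporters of the programme, with medians of -0.12 and -0.01, *Slc38a2* had the lowest mean difference. It encodes SNAT2, a neutral amino acid carrier induced by amino acid shortage through ATF4, and had signals of 3056 and 2718 in the cardio-renal kidneys and 4272 in the uninephrectomy kidney. All 3 of its probe sets were lower in both cardio-renal arrays, the main one with a mean log2 difference of -0.56 ± 0.12 (SD, n = 2). *Slc1a5*, a glutamine carrier, was higher in both by 0.29 ± 0.19 (SD, n = 2) in its brighter probe set and lower in both in its dimmer one. *Slc7a11*, the cystine carrier, was near background on all 3 arrays, with 8.56 and 13.6 in the cardio-renal kidneys and 15.0 in the uninephrectomy kidney.

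The list of other ATF4 or CHOP targets had medians of 0.07 and 0.06 over 21 kept genes, with 9 higher in both arrays and 5 lower. Its apoptosis genes had both signs. *Bcl2l11*, which encodes the BH3-only protein BIM, had 572.9 and 523.1 in the cardio-renal kidneys and 336.6 in the uninephrectomy kidney and was the only gene of the 144 to pass 0.5 in both arrays, although 1 of its 5 probe sets, a dim one, was lower in both. *Bbc3*, which encodes PUMA, was higher by 0.57 ± 0.24 and the cell cycle inhibitor *Cdkn1a* by 0.69 ± 0.37, both with n = 2 and SD on the log2 scale. *Pmaip1*, which encodes NOXA, had 1181 and 731.5 in the cardio-renal kidneys and 1507 in the uninephrectomy kidney. *Bbc3*, *Cdkn1a* and *Pmaip1* are also known as p53 targets, with *Pmaip1* lower in both arrays and the others higher. A list of p53 targets was not examined.

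*Sesn1* and *Sesn3*, the other sestrins, did not match *Sesn2* in size. *Sesn1* had signals of 1070 and 819.4 in the cardio-renal kidneys and 731.8 in the uninephrectomy kidney by its brightest probe set, but 2 of its 4 probe sets were lower in both cardio-renal arrays. *Sesn3* had 1114 and 1042 in the cardio-renal kidneys and 1012 in the uninephrectomy kidney by its brighter probe set, and its dimmer one was lower in both. The list of sestrins and amino acid sensing to mTORC1 had medians of 0.01 and 0.04 over 23 kept genes, with 10 higher in both arrays and 5 lower; *Akt1s1*, the PRAS40 inhibitor of mTORC1, was highest at 0.37 ± 0.20 (SD, n = 2).

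The arms of the unfolded protein response that do not run through ATF4 were nearly level. Over 27 kept genes the medians were -0.07 and 0.04, with 10 lower in both arrays and 6 higher, and mean log2 differences ran from -0.25 to 0.23. Ranked by the smaller of the 2 array differences, the top genes of one sign were *Hsp90b1*, *Pdia6*, *Sdf2l1* and *Derl3*. All were higher in both arrays by their brightest probe sets. *Sec24d* was lower in both, with log2 differences of -0.43 in array 1 and -0.06 in array 2. Its mean difference of -0.25 was the lowest in this list. The dimmer *Pdia6* probe set was lower in both, and the dimmer *Hsp90b1* one lay on either side. *Hspa5*, the chaperone BiP, had signals of 12753 and 14778 in the cardio-renal kidneys and 14926 in the uninephrectomy kidney. *Xbp1*, the factor of the IRE1 arm, had 10515 and 10740 in the cardio-renal kidneys and 11068 in the uninephrectomy kidney by its brightest probe set, and 2 of its other 3 were higher in both. A difference between these arms and the 10 genes was not tested, because the 10 were chosen on these values.

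**Figure D3:**
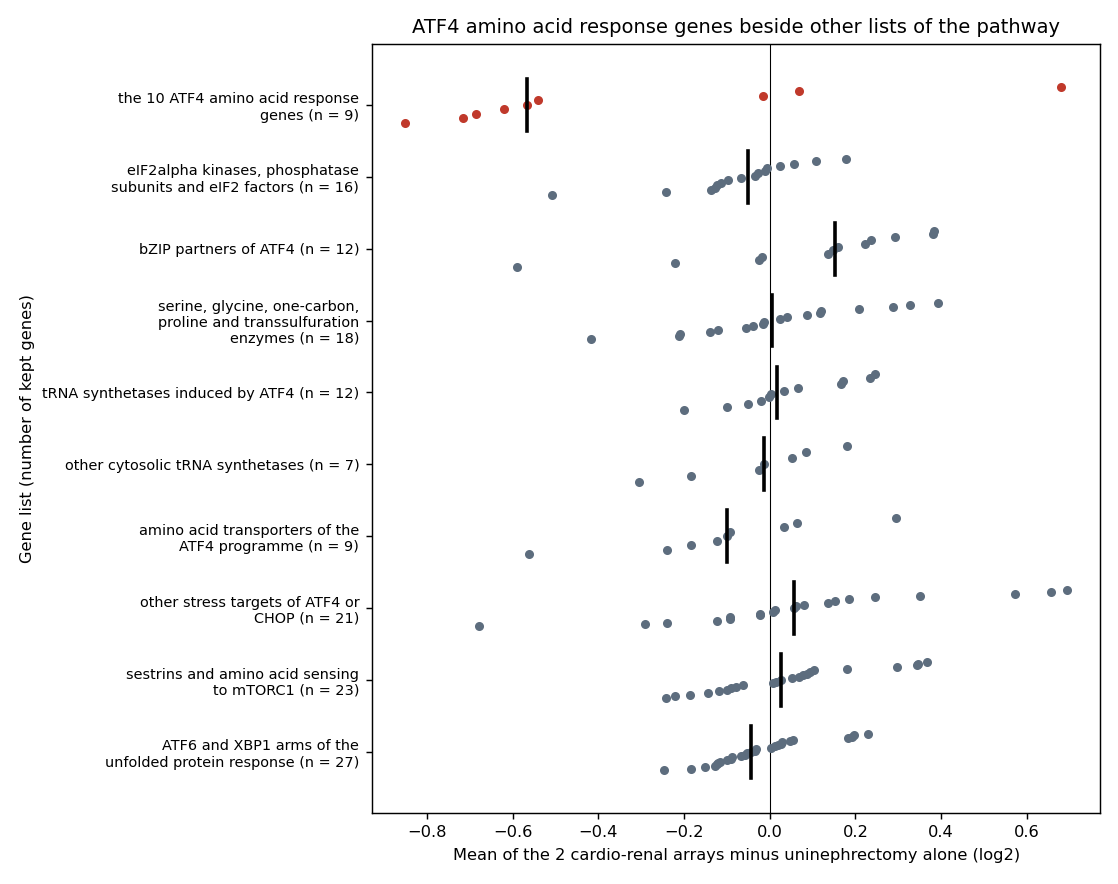
Mean log2 difference of the cardio-renal arrays from the uninephrectomy array for each kept gene (points) of the 10-gene list (red, 9 kept) and of the 9 further pathway lists (grey), with the list median as a vertical bar. The red median lies at -0.57, with *Sesn2* alone at 0.68, and the grey medians lie between -0.10 and 0.15.

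For the 4 genes whose difference passed 0.5 in both arrays, the kept genes with the closest pair of array differences were found by Euclidean distance, over 3 arrays. With so few arrays this is a description, and every point shares the same uninephrectomy array. Nearest to *Asns* were *Lmo2*, *Rac2* and *P2rx1*, at distances of 0.09, 0.13 and 0.14. Nearest to *Ddit3* were *Fst*, *Cck* and *Lyz2*, at 0.03, 0.04 and 0.06. Nearest to *Phgdh* were *Slc41a2*, *Tmem254a* and *Actr5*, at 0.05, 0.06 and 0.08. Nearest to *Sesn2* were *Cyp24a1*, *Tmie* and *Bhlhe40*, at 0.04, 0.05 and 0.06. None of these 12 is among the pathway genes listed.

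Since *Rac2*, *P2rx1* and *Lyz2* are expressed in blood and immune cells, markers of such cells are given beside them. Of 9 macrophage markers, *Lyz2* among them, 6 lay below and 2 above the uninephrectomy signal in each cardio-renal array, with summed signals of 6044 and 6600 in the cardio-renal arrays and 7279 in the uninephrectomy array, and none was at 0. For comparison with the marker counts here, of all 18193 named genes, dim ones included, 5276 were lower and 6116 higher in both. Lymphocyte markers were lower in both for 5 of 7, but only *Ighm* was bright enough to be kept, and it had opposite signs. Their summed signals were 2543 and 241.2 in the cardio-renal arrays and 412.3 in the uninephrectomy array, none at 0. Most of the sum in cardio-renal array 1 came from *Ighm*, with 2246 and 53.6 in the cardio-renal kidneys and 104.0 in the uninephrectomy kidney. Erythroid markers lay on the same side as *Asns* and *Ddit3* for 2 of 3 genes, with summed signals of 1394 and 1808 in the cardio-renal arrays and 2131 in the uninephrectomy array and none at 0. Of these, *Slc4a1*, the band 3 anion exchanger, which collecting duct cells of the kidney also express, had 1157 and 1516 in the cardio-renal kidneys and 1865 in the uninephrectomy kidney. *Hba-a1* was dim, with 9.10 and 37.6 in the cardio-renal kidneys and 49.9 in the uninephrectomy kidney, and *Alas2* was higher in both. The part of these blood and immune transcripts in the lower signals of *Asns* and *Ddit3* was not tested. On the side of *Sesn2*, 4 of 5 adipocyte markers were higher in both, with summed signals of 4503 and 3683 in the cardio-renal arrays and 4004 in the uninephrectomy array, and so were 6 of 9 adrenal markers, with 714.2 and 700.2 in the cardio-renal arrays and 587.2 in the uninephrectomy array. Only 3 of the 5 adipocyte and 3 of the 9 adrenal markers were bright enough to be kept. *Lep* was counted as higher with signals of 2.10 and 1.73 in the cardio-renal kidneys and 1.01 in the uninephrectomy kidney. No marker of either list was at 0, and their part in the higher *Sesn2* signals was not tested. Pancreas, where *Asns* is abundant, is given too: of its 8 markers, 3 lay above and 2 below the uninephrectomy signal in each cardio-renal array, with summed signals of 6837 and 6668 in the cardio-renal arrays and 6555 in the uninephrectomy array, nearly all of it from *Cela1*, and none was at 0. Among its digestive enzymes, *Cpa1* had 6.84 and 7.49 in the cardio-renal kidneys and 6.16 in the uninephrectomy kidney, all below the lower quartile of their arrays. *Ctrb1*, also dim, had 6.88 and 14.7 in the cardio-renal kidneys and 53.0 in the uninephrectomy kidney, lower in both. The part of pancreas transcripts in the *Asns* signals was not tested.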

How the data were processed

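The deposited intensities are MAS5 signals on a linear scale, made with MAS5 per the submitters' processing notes, with no version among those used here. Per the labels' protocols, 250 ng of total RNA was labelled with a 3′ in vitro transcription kit, which reads transcript ends. The trimmed mean (2% at each end) was 500.0 on every array, so the signals were used as deposited. Subtraction of mismatch probes leaves dim values imprecise, and no detection calls were used. The number of arrays limits the precision.

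Of the probe sets, 34945 had 1 gene symbol in the platform annotation, updated through Entrez ID to RefSeq's GRCm38.p6 gene table, 932 had several, 9160 were unnamed here and 64 were controls. For each of 18193 genes the probe set of highest mean signal was used. Signals became log2(signal + 28.8), an offset equal to the middle of the 3 lower quartiles, which understates the change of dim genes. A mean of at least 7.02, the median over all probe sets, was required, which left 11144.

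Group differences came from limma 3.58.1 under R 4.3.3 (lmFit, eBayes with a mean-variance trend), two-sided, with Benjamini-Hochberg adjustment at 0.05 and 1 residual degree of freedom; the lone uninephrectomy sample is taken to vary like the cardio-renal pair. Such p-values reflect only how these samples differ among themselves, which may be technical. All members and gene lists were chosen with earlier results of these data known. Named were every member, direct partners of members, and the 3 genes nearest to each member past 0.5 in both arrays. Up to 4 genes per list were candidates for naming, ranked by the smaller of the array differences among genes of one sign. Not all of them are named. *Sec24d*, the gene of lowest mean difference in its list, is named too. Of the 164 listed pathway genes, 152 had a named probe set. Other settings tried were offsets of 16 and 100, no filter, quantile normalization, other probe set choices, other variance priors and leaving out either cardio-renal array.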

Additional observations from a re-analysis of the deposited data

How the results depend on the processing

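limma called 0 genes, over all genes and over the pathway lists, under each offset, filter, normalization, probe set choice and variance prior tried (230 genes with an unadjusted p below 0.05 without shared-sequence probe sets to 672 without the filter); with 1 cardio-renal array left out no test could be fitted. The 6 lower and 1 higher of the 10 genes became 2 higher with a mean of probe sets, where the lower count stayed 6. Leaving out either cardio-renal array gave 2 genes higher each time, and the counts of all genes at least 2-fold higher ranged from 25 to 55 and lower from 23 to 69, of genes higher in both from 5491 to 5754 and lower from 5390 to 5653, and of pathway genes lower in both from 65 to 78 and higher from 66 to 79, since 1 array has only 1 sign. Genes at least 2-fold higher and lower in both, 15 and 6 as reported, numbered 8 and 3 with an offset of 100 and 76 and 19 without the filter, 9 higher with a mean of probe sets, and 3 lower without shared-sequence probe sets; without the filter 6116 genes were higher and 5276 lower in both. No member difference of one sign in both arrays reversed in any setting tried. As a mean of probe sets *Atf4* stood at -0.26 and *Asns* at -0.61, and *Asns* at -0.71 with an offset of 100. The setting without shared-sequence probe sets left out every name ending in _s_at, _x_at or _a_at, the last of which need not mean probes shared with another gene. *Phgdh*, *Psat1*, *Atf5* and *Trib3* have no other probe sets and so no value in that setting. The count of the 10 genes lower in both was then 5. A 1-array control, dim signals for *Chac1* and *Trib3* and no detection calls limit what can be said. No paired analysis was possible because the labels state no pairing and the uninephrectomy group has 1 array.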
